A study of Mus musculus with 6 samples.

Results

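The 9 genes described here are transcriptional targets and feedback regulators of β-catenin signalling, chosen by symbol: Axin2, Nkd1, Nkd2, Lef1, Tcf7, Notum, Sp5, Rnf43 and Znrf3. All 9 were found among the 23366 genes listed in each count file. Canonical WNT signalling stabilises β-catenin, which enters the nucleus and activates genes together with DNA-binding partners of the TCF/LEF family. Several of its targets act back on the pathway, and their transcripts are widely used as a readout of its activity. In the embryonic face the pathway operates in both the epithelium and the neural crest-derived mesenchyme of the palatal shelves, the paired outgrowths that fuse to form the secondary palate.

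Expression was measured by mRNA sequencing of dissected palatal shelves of mouse embryos at E14.25. The mutant embryos were Kmt2dfl/fl Wnt1-Cre (KO, 3 libraries, replicates 1, 2 and 3), in which Cre recombinase deletes the floxed histone methyltransferase gene Kmt2d in the neural crest lineage, and the others were WT (3 libraries, replicates 2, 3 and 4). The series asks how loss of KMT2D from the neural crest changes gene expression in the palate. Wnt1-Cre acts in the neural crest and the dorsal neural tube, so the epithelium, vessels and blood of the KO shelf are expected to keep an intact gene. Whether the WT embryos carried Cre or a floxed allele is not given in the sources used here. Whole shelves were sequenced, and in such samples fewer cells of a type and less RNA per cell cannot be told apart.

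Read pairs assigned to genes numbered 12721979 to 20203309 in KO libraries and 20785074 to 24916079 in WT libraries. KO replicate 2 stood apart from the rest. Pairs outside genes made up 47.5% of its listed total, against 12.3% to 18.1% in the other 5 libraries, and its log2 values correlated across 14233 genes at 0.932 to 0.951 with those of the others, which correlated at 0.976 to 0.990 among themselves. Results for the 9 genes are therefore also given without it. The transcript of the targeted gene, counted over the whole gene, was 254, 539 and 193 CPM (read pairs per 1000000 of the normalised library size) in KO replicates 1, 2 and 3 and 197, 211 and 171 CPM in WT replicates 2, 3 and 4, which does not check the deletion because exons outside the deleted part and cells outside the lineage are counted too. The 12 markers of palate mesenchyme were all detected, with a summed level of 5033 to 5990 CPM in KO and 5718 to 6648 CPM in WT. Wnt1 itself, whose regulatory sequences drive the Cre, had 1 read pair over all 6 libraries (named after its values were seen).

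Nkd1 was the single feedback gene that passed the threshold, an adjusted p below 0.05 over all genes in edgeR's quasi-likelihood test, and it was lower in KO. Lef1 lay higher in KO than in WT in each library, Nkd2, Notum and Rnf43 lay lower in each, and none of these 4 passed. Of the 9 genes, 1 was called lower and 0 higher. Over the 14233 genes tested, 0.534% were called, 0.436% lower and 0.0984% higher. At an unadjusted p below 0.05, 4 of the 9 were lower and 1 was higher, against 6.69% and 7.51% of all genes. All 3 KO libraries lay below all 3 WT libraries for 4 of the 9, against 11.2% of all genes, and above them for 1 of the 9, against 12.3%. The median log2 fold change, KO over WT, was -0.70 for the 9 genes and 0.011 for all genes tested. All 9 passed the filter on low counts. The 9 genes were chosen with earlier results of these data known, so the shares above describe them and are not a test of the set.

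**Figure D1:**
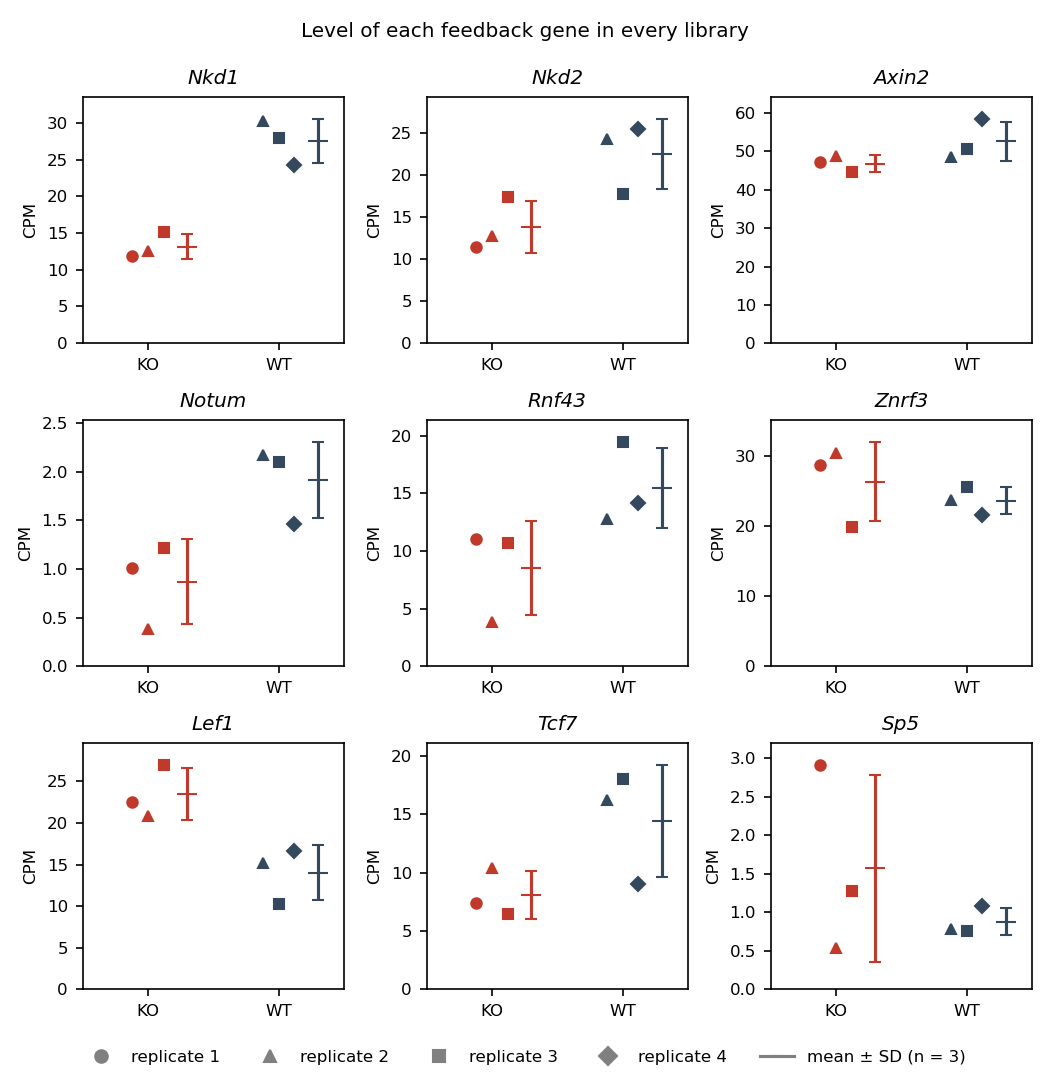
Level of each of the 9 feedback genes in CPM (vertical axes, each from 0) in the 3 KO and the 3 WT libraries, with symbols for replicate numbers and bars for the mean ± SD. Nkd1 shows 11.9 to 15.1 CPM in KO and 24.3 to 30.2 CPM in WT, Lef1 lies higher in KO, and the Axin2 groups overlap.

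Nkd1 and Nkd2 encode the Naked cuticle proteins, which bind Dishevelled and antagonise WNT signalling inside the cell. Nkd1 stood at 11.9, 12.5 and 15.1 CPM in KO replicates 1, 2 and 3, against 30.2, 27.96 and 24.3 CPM in WT replicates 2, 3 and 4. The highest KO library lay well below the lowest WT library. Nkd1 averaged 13.2 ± 1.69 CPM in KO and 27.5 ± 3.00 CPM in WT (SD, n = 3 each), giving -1.06 ± 0.15 for the log2 fold change (SE; edgeR, adjusted p = 0.0392), or 2.09-fold lower. Nkd1 ranked 48 by p among the genes tested. Leaving out KO replicate 2 gave a log2 fold change of -1.03 (edgeR, adjusted p = 0.00703). Leaving out KO replicate 1, KO replicate 3, WT replicate 2, WT replicate 3 or WT replicate 4 ended the call, with log2 fold changes of -0.99, -1.17, -0.99, -1.05 and -1.14 and edgeR adjusted p of 0.107, 0.064, 0.235, 0.231 and 0.151 in that order. In the same order these fits called 20, 11, 0, 0 and 3 genes of any kind, against 76 with all 6 libraries. DESeq2 also called Nkd1 on all 6 libraries (adjusted p = 1.6e-06), as did limma voom (adjusted p = 0.0486). With the genes Rn45s and Lars2 left out, its log2 fold change was -1.09 (edgeR, adjusted p = 0.0368).

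Nkd2, the paralogue of Nkd1, stood at 11.4, 12.8 and 17.3 CPM in KO replicates 1, 2 and 3, against 24.2, 17.7 and 25.5 CPM in WT replicates 2, 3 and 4. KO replicate 3 lay just below WT replicate 3, so the groups were close to touching. On the log2 scale the KO to WT difference was -0.70 ± 0.21 (SE; edgeR, adjusted p = 0.25), and -0.65 without KO replicate 2 (adjusted p = 0.194). Within each library, the ratio of Nkd1 to Nkd2 counts, into which no library scaling enters, was 1.04, 0.976 and 0.869 in KO replicates 1, 2 and 3 and 1.25, 1.58 and 0.953 in WT replicates 2, 3 and 4. These ranges overlap, and the difference in log2 ratio, KO minus WT, was -0.36 (two-sided exact permutation test, p = 0.3), with -0.18 when WT replicate 3 and -0.54 when WT replicate 4 was left out. With 3 against 3 libraries the smallest p that an exact permutation test allows is 0.1, so none of the 8 ratios compared can pass.

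The stretch of DNA around the annotated start of Nkd1 is shown because it is the gene that was called, beside that of Sp5, a direct target whose promoter is known to hold TCF/LEF sites. The windows run from 250 bases before to 50 bases after the start and come from RefSeq on build GRCm38.p6, whereas the counts were made on mm9. The Nkd1 window is chr8:88527383-88527682 and the Sp5 window chr2:70474673-70474972, both on the plus strand. Capitals mark matches to the TCF/LEF core, which is CTTTGAA or its variants with the ending changed (the word CTTTGAT, the word CTTTGTA or the word CTTTGTT), searched on both strands, with a reverse match shown as it reads on the printed strand.
Nkd1: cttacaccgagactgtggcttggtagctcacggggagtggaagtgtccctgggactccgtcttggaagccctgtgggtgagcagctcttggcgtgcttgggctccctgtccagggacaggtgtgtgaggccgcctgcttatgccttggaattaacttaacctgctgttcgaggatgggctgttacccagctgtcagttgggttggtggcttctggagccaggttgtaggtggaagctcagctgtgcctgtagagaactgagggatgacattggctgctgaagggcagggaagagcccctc
Sp5: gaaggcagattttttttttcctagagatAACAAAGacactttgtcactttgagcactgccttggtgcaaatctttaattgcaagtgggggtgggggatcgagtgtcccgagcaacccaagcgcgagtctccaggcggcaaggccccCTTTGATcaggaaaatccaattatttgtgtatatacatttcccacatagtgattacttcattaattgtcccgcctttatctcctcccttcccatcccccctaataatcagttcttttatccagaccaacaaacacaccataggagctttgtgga
The Sp5 window held 2 matches and the Nkd1 window 0. Windows were found for 7 of the 9 genes, 12 windows in all, and 2 of these 12 (16.7%) held a match, against 16.9% of 32851 windows of all genes. At least 2 matches occurred in 1.94% of all windows. The other window with a match, with 1, was that of the most downstream of 4 annotated starts of Lef1, chr3:131156044-131156343 on the plus strand, and it is shown because Lef1 lay higher in KO where Nkd1 lay lower.
Lef1: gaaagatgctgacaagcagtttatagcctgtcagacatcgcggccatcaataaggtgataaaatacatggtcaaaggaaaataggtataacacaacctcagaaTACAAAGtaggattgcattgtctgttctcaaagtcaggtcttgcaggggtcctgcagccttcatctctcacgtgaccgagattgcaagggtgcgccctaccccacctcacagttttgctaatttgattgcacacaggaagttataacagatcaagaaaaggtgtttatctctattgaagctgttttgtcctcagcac
A match is a description of the sequence and not evidence of a bound site, and the counts do not tell which start was used.

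Axin2, a scaffold of the complex that degrades β-catenin and the most common readout of the pathway, had the highest level per length in both groups, and those groups overlapped. It stood at 47.1, 48.9 and 44.5 CPM in KO replicates 1, 2 and 3, against 48.7, 50.8 and 58.4 CPM in WT replicates 2, 3 and 4. KO replicate 2 lay within the WT range. Between KO and WT it differed by a log2 fold change of -0.17 ± 0.11 (SE; edgeR, adjusted p = 0.49), and -0.21 without KO replicate 2 (adjusted p = 0.332). Leaving out WT replicate 4, the highest library, gave -0.087 (adjusted p = 0.872). Inside a library there were 0.252, 0.255 and 0.339 Nkd1 counts per Axin2 count in KO replicates 1, 2 and 3, against 0.621, 0.551 and 0.416 in WT replicates 2, 3 and 4. The highest KO ratio lay below the lowest WT ratio, with a difference in log2 ratio of -0.90 (two-sided exact permutation test, p = 0.1, adjusted p = 0.16 over the 8 ratios).

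**Figure D2:**
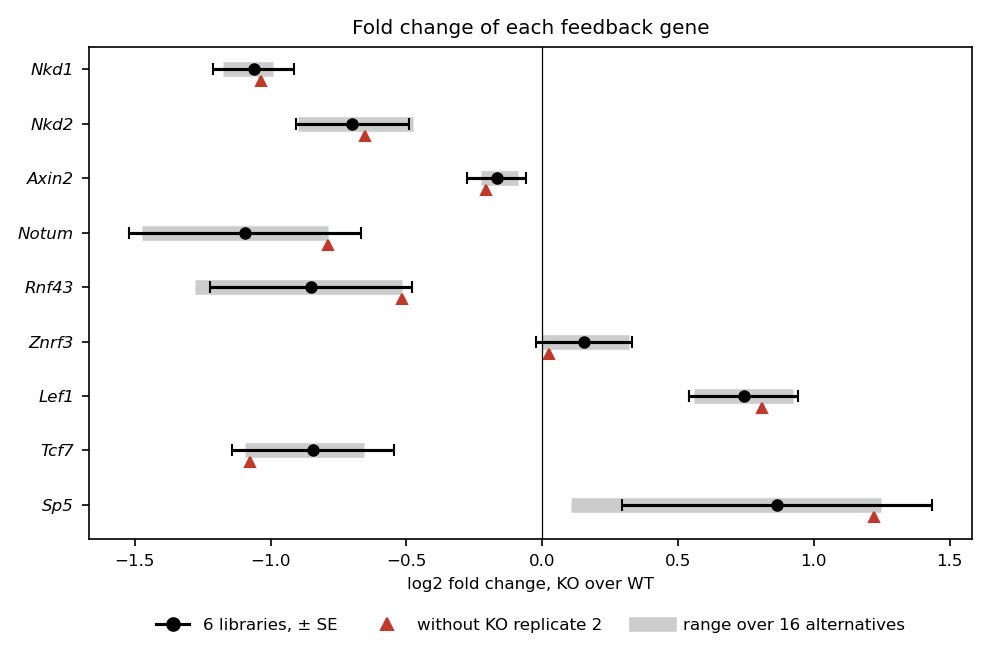
Log2 fold change, KO over WT, of each feedback gene (horizontal axis) with its standard error, the value without KO replicate 2 as a triangle, and the range over 16 alternative fits as a grey bar. Nkd1 lies between -1.17 and -0.99 in every one of these fits, while Sp5 spreads from 0.11 to 1.25.

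Notum, a secreted enzyme that removes the lipid from WNT proteins, was close to the lower limit of what these libraries can measure. Its counts were 16, 5 and 22 in KO replicates 1, 2 and 3, with exact 95% Poisson intervals of 9.15 to 26.0, 1.62 to 11.7 and 13.8 to 33.3, against 61, 47 and 34 in WT replicates 2, 3 and 4. Such intervals cover counting error only. In CPM these are 1.01, 0.378 and 1.22 in KO replicates 1, 2 and 3 and 2.17, 2.11 and 1.46 in WT replicates 2, 3 and 4, so that the groups did not overlap. Its log2 fold change came to -1.09 ± 0.43 (SE; edgeR, adjusted p = 0.33), and -0.79 without KO replicate 2 (adjusted p = 0.348).

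Rnf43 and Znrf3 encode related membrane ubiquitin ligases that remove Frizzled receptors from the cell surface and are themselves held in check by R-spondins. Rnf43 stood at 11.1, 3.86 and 10.7 CPM in KO replicates 1, 2 and 3, against 12.8, 19.4 and 14.21 CPM in WT replicates 2, 3 and 4. KO replicate 2 was far below the other KO libraries, which lay just below the WT range. For this ligase the log2 fold change was -0.85 ± 0.37 (SE; edgeR, adjusted p = 0.357), and it was -0.52 without KO replicate 2 (adjusted p = 0.216), a smaller difference by more than 1.5 times on the log2 scale. Znrf3 stood at 28.7, 30.4 and 19.9 CPM in KO replicates 1, 2 and 3, against 23.8, 25.5 and 21.6 CPM in WT replicates 2, 3 and 4. The KO libraries fell on both sides of the WT range. Its log2 fold change, KO over WT, came to 0.15 ± 0.18 (SE; edgeR, adjusted p = 0.696), and it was 0.027 without KO replicate 2, 0.086 without KO replicate 1, 0.32 without KO replicate 3 and 0.092 without WT replicate 4. The ratio of Znrf3 to Rnf43 counts was 2.59, 7.88 and 1.87 in KO replicates 1, 2 and 3 and 1.86, 1.31 and 1.52 in WT replicates 2, 3 and 4. KO replicate 3 lay just above the highest WT ratio, and the difference in log2 ratio of 1.12 dropped to 0.51 without KO replicate 2 (two-sided exact permutation test on all 6 libraries, p = 0.1, adjusted p = 0.16).

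Lef1, Tcf7 and Sp5 encode transcription factors. LEF1 and TCF7 are the DNA-binding partners of β-catenin whose genes are also its targets, and SP5 is a zinc finger protein that acts on further WNT target genes. Lef1 stood at 22.6, 20.9 and 26.96 CPM in KO replicates 1, 2 and 3, against 15.2, 10.3 and 16.7 CPM in WT replicates 2, 3 and 4. Every KO library lay above every WT library. Lef1 had a log2 fold change of 0.74 ± 0.20 (SE; edgeR, adjusted p = 0.217), and 0.81 without KO replicate 2 (adjusted p = 0.0838). DESeq2 gave an adjusted p = 0.057, the lowest of the alternatives, and limma voom 0.199. Without WT replicate 2, 3 or 4 the edgeR adjusted p was 0.561, 0.579 and 0.391.

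Tcf7 stood at 7.403, 10.4 and 6.41 CPM in KO replicates 1, 2 and 3, against 16.3, 18.01 and 8.998 CPM in WT replicates 2, 3 and 4. KO replicate 2 and WT replicate 4 crossed, so the groups overlapped. Tcf7 had a log2 fold change of -0.84 ± 0.30 (SE; edgeR, adjusted p = 0.307), and -1.08 without KO replicate 2 (adjusted p = 0.152). Lef1 counts were 3.05, 2.01 and 4.21 times the Tcf7 counts in KO replicates 1, 2 and 3, against 0.932, 0.572 and 1.85 times in WT replicates 2, 3 and 4. The groups did not overlap, with a difference in log2 ratio of 1.57 (two-sided exact permutation test, p = 0.1, adjusted p = 0.16). These ratios are of counts, not of molecules, since the transcripts differ in length.

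Nkd1 counts were 0.527, 0.598 and 0.559 of the Lef1 counts in KO replicates 1, 2 and 3, and 1.99, 2.71 and 1.46 times them in WT replicates 2, 3 and 4. Of the 8 ratios this one had the widest gap between groups relative to the spread inside KO, whose log2 ratio averaged -0.84 ± 0.092, against 0.99 ± 0.45 in WT (SD, n = 3 each). The difference in log2 ratio was -1.83, and -1.87 without KO replicate 2 (two-sided exact permutation test on all 6 libraries, p = 0.1, adjusted p = 0.16). Nkd1 to Znrf3 differed by -1.20 in log2 ratio without overlap (exact permutation p = 0.1, adjusted p = 0.16). Nkd1 to Tcf7 and Nkd1 to Rnf43 differed by -0.26 and -0.079, with overlapping groups (exact permutation p = 0.5 and 0.9). The Nkd1 to Tcf7 difference was -0.035 without WT replicate 4, -0.43 without WT replicate 3 and -0.51 without KO replicate 3. Without KO replicate 2 the differences in log2 ratio were -0.84 for Nkd1 over Axin2, -0.37 for Nkd1 over Nkd2, -1.05 for Nkd1 over Znrf3, -0.027 for Nkd1 over Tcf7, -0.54 for Nkd1 over Rnf43 and 1.85 for Lef1 over Tcf7. Ratios to Notum and Sp5 were not computed, because each had a library with under 10 counts.

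**Figure D3:**
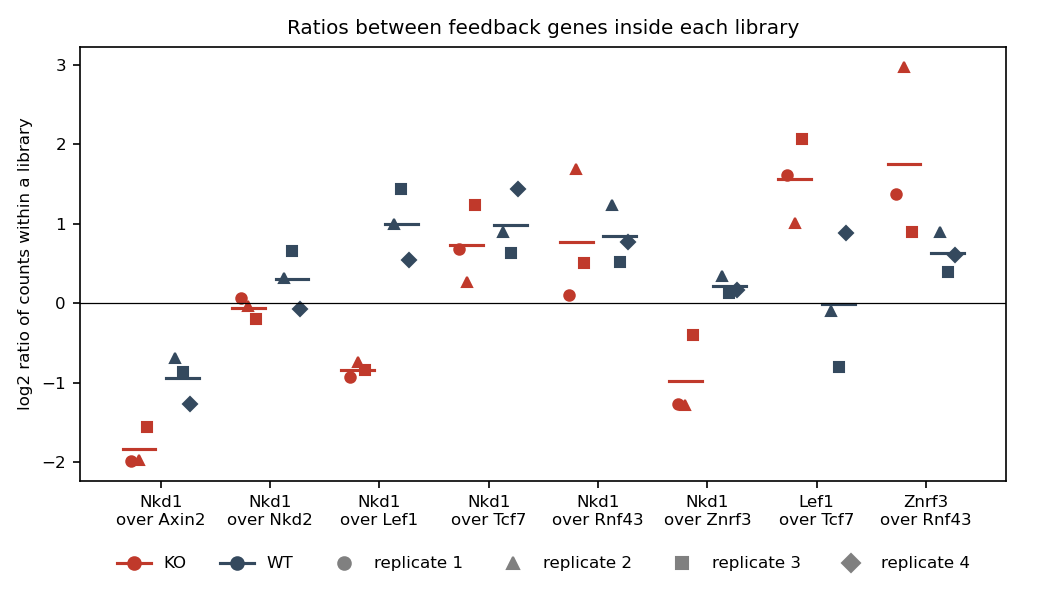
Log2 ratio of the counts of feedback gene pairs within each library (vertical axis), KO in red and WT in blue, with a line at each group mean (n = 3). Nkd1 over Lef1 is below 0 in the 3 KO libraries and above 0 in the 3 WT libraries, and Nkd1 over Rnf43 overlaps.

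Sp5 was the least abundant of the transcription factors and varied most among KO libraries relative to its mean. Its counts were 46, 7 and 23 in KO replicates 1, 2 and 3, against 22, 17 and 25 in WT replicates 2, 3 and 4. The exact 95% Poisson intervals of KO replicates 1 and 2, 33.7 to 61.4 and 2.81 to 14.4, do not meet, and the levels of 2.91 and 0.53 CPM lay on either side of the WT range of 0.762 to 1.08 CPM. Sp5 had a log2 fold change of 0.86 ± 0.57 (SE; edgeR, adjusted p = 0.495), and it was 0.11 without KO replicate 1 and 1.22 without KO replicate 2.

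Levels were compared between genes as CPM per kilobase of exon, with lengths from GENCODE M21. In KO the order from high to low was Axin2 at 8.51 ± 0.40, Znrf3 at 3.34 ± 0.72, Tcf7 at 3.07 ± 0.78, Nkd1 at 2.89 ± 0.37, Nkd2 at 2.87 ± 0.65, Lef1 at 2.67 ± 0.36, Rnf43 at 1.30 ± 0.62, Sp5 at 0.748 ± 0.58 and Notum at 0.361 ± 0.18 CPM per kilobase (SD, n = 3). In WT it was Axin2 at 9.56 ± 0.93, Nkd1 at 6.03 ± 0.66, Tcf7 at 5.50 ± 1.82, Nkd2 at 4.66 ± 0.86, Znrf3 at 3.00 ± 0.25, Rnf43 at 2.36 ± 0.53, Lef1 at 1.598 ± 0.38, Notum at 0.795 ± 0.16 and Sp5 at 0.416 ± 0.084 CPM per kilobase (SD, n = 3). Axin2 led in each group by more than the spread. In KO the genes from Znrf3 to Lef1 lay within 1 SD of their neighbours, whereas in WT Nkd1 lay second and Lef1 seventh. The summed level of the 9 genes was 144, 141 and 143 CPM in KO replicates 1, 2 and 3 and 172 to 174 CPM in the WT libraries.

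The rest of the pathway was read from 95 further genes in 8 role lists, 85 of which could be tested. At an unadjusted p below 0.05 in edgeR, 16 were lower and 2 higher, against 6.69% and 7.51% of all genes tested. These 2 shares also stand against the counts by list below. The lists too were chosen with earlier results of these data known, so the counts are descriptive. None was called by edgeR with 6 libraries, whereas DESeq2 called 9 lower and limma voom 0, against 1.96% of the 15894 genes with an adjusted p in DESeq2 and 0.358% of the 14233 tested by voom. Without KO replicate 2 edgeR called 4 lower and 0 higher, against 1.57% and 0.547% of the 14450 genes tested there (2.12% in either direction). On the log2 scale their median was -0.090 (-0.055 without KO replicate 2), 52 of the 85 being negative, against 48.5% of all genes tested.

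Upstream of the receptor, 13 of the 19 WNT ligands could be tested. The median of these 13 was -0.67 on the log2 scale, 11 of them negative and 4 at an unadjusted p below 0.05, all lower, and without KO replicate 2 the median was -0.40. The 19 ligands summed to 209, 102 and 162 CPM in KO replicates 1, 2 and 3. In WT they summed to 168 to 182 CPM, so the groups overlapped in summed level. The ligand with the smallest p was Wnt10b, at 2.09, 1.29 and 1.49 CPM in KO replicates 1, 2 and 3, against 3.67, 4.71 and 4.35 CPM in WT replicates 2, 3 and 4 (log2 fold change -1.38, edgeR adjusted p = 0.112). The 2 genes of ligand secretion had a median of 0.25, and Porcn, the enzyme that lipidates WNT proteins, had a log2 fold change of 0.43 (edgeR, adjusted p = 0.378), and 0.24 without KO replicate 2. Of the R-spondins and their LGR receptors, which enhance signalling by restraining RNF43 and ZNRF3, 6 were tested, with a median of -0.38 and 3 lower at an unadjusted p below 0.05. Rspo1 stood at 9.55, 3.48 and 2.98 CPM in KO replicates 1, 2 and 3, against 14.1, 16.3 and 13.6 CPM in WT replicates 2, 3 and 4 (log2 fold change -1.46, edgeR adjusted p = 0.235).

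Antagonists at the cell surface or outside it had a median log2 fold change of -0.35 over 12 tested genes, 4 of them lower at an unadjusted p below 0.05. Sfrp1, a secreted protein that binds WNT ligands, stood at 136, 111 and 155 CPM in KO replicates 1, 2 and 3, against 224, 214 and 235 CPM in WT replicates 2, 3 and 4. The groups did not overlap, with a log2 fold change of -0.74 (edgeR, adjusted p = 0.0846). Without KO replicate 2 the list had 3 genes called lower: Sfrp1 (log2 fold change -0.63, edgeR adjusted p = 0.0056), the secreted inhibitor Wif1 (-1.20, adjusted p = 0.008, and -0.79 with all 6 libraries) and the Dickkopf receptor Kremen1 (-0.48, adjusted p = 0.0409), of which Wif1 and Kremen1 are named after their values were seen.

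Receptors had a median of -0.12 over 15 genes (-0.053 without KO replicate 2), and the smallest p was that of Fzd10, a Frizzled receptor, with a log2 fold change of -1.21 (edgeR, adjusted p = 0.203). The cytoplasmic core, including β-catenin itself, Dishevelled and the kinases, had a median of 0.12 over 13 genes, and 0 of them had an unadjusted p below 0.05. Its smallest p was that of Dvl3, a Dishevelled gene, with a log2 fold change of 0.29 (edgeR, adjusted p = 0.379), and 0.13 without KO replicate 2. Nuclear partners had a median of -7.0e-04 over 13 genes, which turned to 0.085 without KO replicate 2, led by Bcl9l, a β-catenin cofactor, with a log2 fold change of -0.44 (edgeR, adjusted p = 0.191). Other reported targets had a median of -0.21 over 11 genes, 2 lower and 1 higher at an unadjusted p below 0.05. Tnfrsf19, a TNF receptor family member, stood at 55.7, 44.7 and 39.8 CPM in KO replicates 1, 2 and 3, against 76.8, 84.0 and 73.3 CPM in WT replicates 2, 3 and 4 (log2 fold change -0.74, edgeR adjusted p = 0.0966, and adjusted p = 0.0483 without KO replicate 2).

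**Figure D4:**
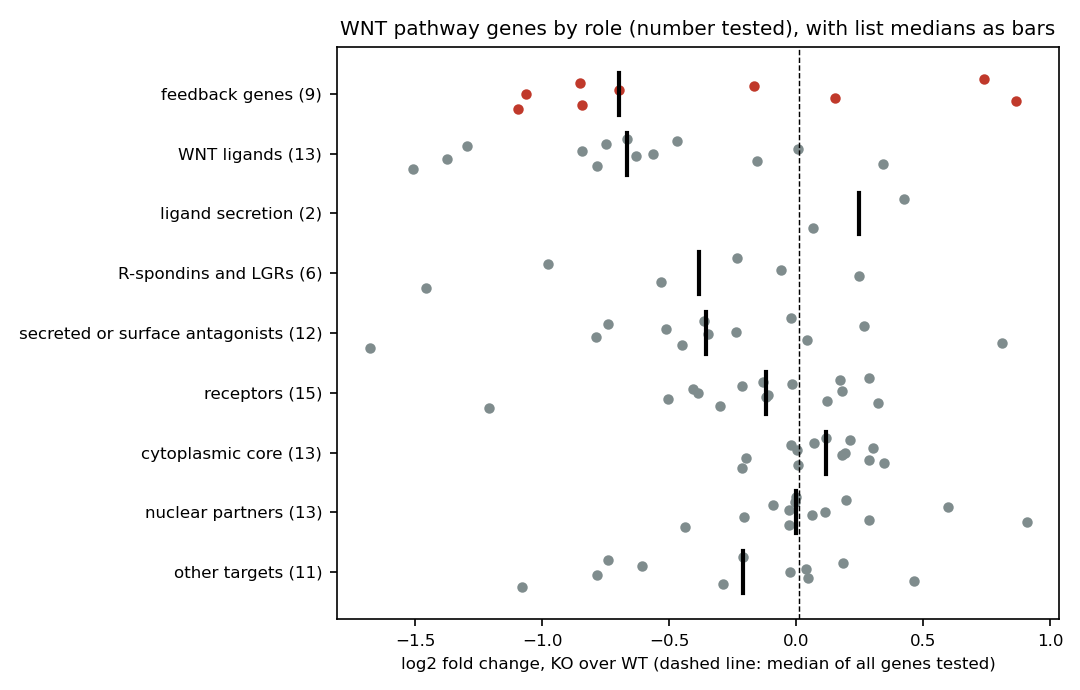
Log2 fold change, KO over WT (horizontal axis), of the 9 feedback genes in red and of the other pathway genes in grey by role, with the number tested in brackets, list medians as bars and the median of all genes as a dashed line. The feedback genes run from -1.09 to 0.86, and the cytoplasmic core from -0.21 to 0.35.

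The genes whose log2 CPM followed Nkd1 most closely over the 6 libraries were Fcrls (Pearson r = 0.991), Hhip, a Hedgehog-binding antagonist (0.991), Hmha1 (0.988), Slc16a4, a monocarboxylate transporter family member (0.987), and Sfr1 (0.987). Among the pathway lists they were Kremen1 (0.955), Ccnd1, which encodes cyclin D1 (0.946), and Sfrp1 (0.935). These values describe 6 libraries that share a difference between 2 groups, and 93 of the 13430 genes compared (0.692%) reached 0.95. Within the feedback genes the correlation with Nkd1 ran from 0.86 for Notum and 0.86 for Nkd2 to -0.81 for Lef1.

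Other cell types in the shelf moved with the groups too. The 15 epithelial markers summed to 394 to 675 CPM in KO, lowest in replicate 2, and 707 to 869 CPM in WT, with 14 of 15 log2 fold changes negative, and Epcam at 65.3, 36.4 and 58.2 CPM in KO replicates 1, 2 and 3 against 69.3 to 84.7 CPM in WT. The 8 endothelial markers summed to 231 to 269 CPM in KO and 290 to 318 CPM in WT (7 of 8 negative, Pecam1 33.1 to 38.2 CPM in KO and 42.1 to 45.9 CPM in WT). The 8 leukocyte markers summed to 39.7 to 48.4 CPM in KO and 61.1 to 67.0 CPM in WT (7 of 8 negative, Csf1r 10.4 to 12.1 CPM in KO and 14.2497 to 16.3 CPM in WT). No marker of these 3 lists was at 0. With all 6 libraries 0 of them were called. Without KO replicate 2 edgeR called 4 epithelial, 0 endothelial and 1 leukocyte marker lower, and 0 higher. Of the 14450 genes tested there, 1.57% were called lower and 0.547% higher. The part of these cell types in the lower Nkd1, Nkd2, Notum and Rnf43 was not tested. Of the 12 markers of palate mesenchyme 8 had a negative log2 fold change, with a list median of -0.17 (-0.085 without KO replicate 2) and 0 called in either direction, and without KO replicate 2 edgeR called 1 lower, Prrx2 (log2 fold change -0.61, adjusted p = 0.0102, and -0.79 with all 6 libraries, named after its values were seen). The mesenchymal markers on the list of named genes were both among the 4 with a positive log2 fold change: Prrx1 stood at 682 to 948 CPM in KO and 562 to 630 CPM in WT, and Pdgfra at 378 to 569 CPM in KO and 399.9 to 433 CPM in WT.

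Lists of osteoblast, muscle, Schwann or neural and erythroid markers overlapped between groups in their summed level. They were 326 to 538 CPM in KO and 282 to 448 CPM in WT for osteoblast, 184 to 1153 CPM in KO and 216 to 449 CPM in WT for muscle, 101 to 180 CPM in KO and 136 to 196 CPM in WT for Schwann or neural, and 244 to 1308 CPM in KO and 496 to 943 CPM in WT for erythroid genes. The highest muscle and lowest erythroid sums were those of KO replicate 2. Chondrocyte markers summed to 530 to 599 CPM in KO and 581 to 1667 CPM in WT, which overlapped too. Gene by gene this list was mostly lower in KO, with 8 of 9 log2 fold changes negative and a median of -1.45 (-1.29 without KO replicate 2). All 3 KO libraries lay below all 3 WT libraries for 4 of the 9, against 11.2% of all genes. Col2a1 stood at 880, 265 and 245 CPM in WT replicates 2, 3 and 4, and at 92.6 to 233 CPM in KO. It is named after its values were seen, because WT replicate 2 stood apart in it. Mia, a secreted protein of chondrocytes, was the single marker called in any list with all 6 libraries and is named for that after its values were seen (log2 fold change -2.03, edgeR adjusted p = 0.0416, and adjusted p = 0.0153 without KO replicate 2). Myog stood at 20.1 to 27.5 CPM in KO and 20.7 to 31.4 CPM in WT, and Sox10 at 6.58 to 20.1 CPM in KO and 9.25 to 10.8 CPM in WT. Of the 8 muscle markers, Myog was the 1 with a negative log2 fold change and the other 7 were positive. The median of that list was 0.23, and -0.49 without KO replicate 2.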

How the data were processed

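Per the labels' protocols, shelves were frozen in Trizol and libraries made with a stranded mRNA-seq kit. The submitters' processing notes name TopHat2, SAMtools, HTSeq and build mm9. Neither the annotation nor the strand setting of the counting is stated in these notes. Each library came as 1 deposited file of raw counts per gene, and its 5 lines for unassigned pairs were not used in fits or scaling. In GENCODE M21, 6 of the 9 genes overlap a gene on the opposite strand, so their counts could include its reads.

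TMM scaling was used, and filterByExpr removed low counts, leaving 14233 genes. KO was compared with WT by edgeR's quasi-likelihood test (edgeR 4.0.16, R 4.3.3, robust, no covariate), adjusted by Benjamini-Hochberg over all genes tested, with a threshold of 0.05. The standard error is the log2 fold change divided by the root of the F statistic. Correlations used log2(CPM + 0.5). Within-library ratios needed at least 10 counts of both genes in each library. The procedure was tested on simulated data with the same dispersion for every gene and library and with changes in well-counted genes only. That simulation does not cover a library like KO replicate 2 or counts as low as those of Notum and Sp5. Alternatives used DESeq2 1.42.0 and limma 3.58.1 voom, other scalings and filters, left-out libraries and a replicate block, and, added after seeing the data, edgeR's earlier quasi-likelihood method. Libraries of 1 group differed beyond counting error (chi-square per degree of freedom 11.5 to 163). The labels name no litter or date.

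The 9 genes and the lists were chosen with earlier results of these data known. Named besides the 9 genes were the called members of each pathway list, or else the 1 with the smallest p, the 5 genes and 3 pathway genes most correlated with Nkd1, Kmt2d, and Epcam, Prrx1, Pdgfra, Pecam1, Sox10, Myog and Csf1r. Wnt1, Wif1, Tcf7l2, Prrx2, Col2a1 and Mia fall outside this rule, as does the further call of Kremen1, and were named after their values were seen.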

Additional observations from a re-analysis of the deposited data

How the results depend on the processing

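Of the 9 genes, Nkd1 kept a negative log2 fold change in all 16 alternatives (-1.17 to -0.99) and an adjusted p below 0.05 in 11 of them, ending in the 5 fits that left out a library other than KO replicate 2. With single libraries left out, the feedback genes called lower numbered 0 to 1, other pathway genes called lower 0 to 4, and all genes called 0 to 79 higher and 0 to 227 lower (14 and 62 with all 6). In the fits without WT replicate 2 or 3, edgeR called 0 genes, with 1102 and 1117 at an unadjusted p below 0.05. DESeq2 called 142 higher and 311 lower, voom with quality weights 129 and 230, and voom 9 higher. Other pathway genes called lower were 9 with DESeq2 and 5 with voom with quality weights.

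The replicate numbers 2 and 3 occur in both groups, but the labels do not say that they pair embryos, and the deviations of the numbered pairs correlated at 0.24 and -0.15. With the replicate number as a block, 103 genes were called higher and 195 lower, the feedback genes called lower were 2 (Nkd1, and Rnf43 at a log2 fold change of -1.28 and an edgeR adjusted p = 0.0104, a call it lacks without the block), other pathway genes were 1 higher and 4 lower, Znrf3 turned to -0.0021, and Nkd1 over Rnf43 within numbers 2 and 3 to a log2 ratio difference of 0.22. Leaving out single libraries put that ratio difference between -0.54 and 0.25. No other gene or ratio of the 9 changed sign in any alternative. The cause of these shifts was not tested. Depth limits Notum and Sp5, whose libraries held 5 to 61 and 7 to 46 counts.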
